A study of Mus musculus with 6 samples.

Results

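The genes described here are 10 regulators of red cell formation: the transcription factors and cofactors Gata1, Klf1, Tal1, Nfe2, Zfpm1, Gfi1b, Ldb1 and Bcl11a, and the receptors for erythropoietin (Epor) and transferrin (Tfrc). They were listed by name, not by a rule on their values, though with earlier results of these data known. They were matched to the table's Entrez gene IDs through symbols. All 10 were found among 40808 gene IDs, and all 10 passed the filter on low counts that left 14110 genes to test. The samples were spleens of mice given a bone marrow transplant, and the labels call the RNA that of leukaemia cells of the spleen. Of the 6 libraries, 3 came from samples without Dox (replicates 4, 5 and 6) and 3 from samples on Dox (replicates 10, 11 and 12), and transplantation is common to both groups. The labels do not give the dose and duration of Dox, the transgene it acts on, the promoter that drives it, and the strain, sex and age of the animals. The study's title concerns control of NOTCH receptors by UVRAG, ITCH and the ESCRT sorting machinery. The labels do not say that each library is a separate animal, so p-values measure the spread between these samples, which may be partly technical.

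Red cell precursors are built by a small circuit of DNA-binding proteins. GATA1 works with its cofactor FOG1, the product of Zfpm1, and joins TAL1 through the adaptors LMO2 and LDB1, while KLF1 activates the adult beta globin gene and genes of the red cell membrane and of haem synthesis. Erythropoietin keeps the precursors alive through its receptor, and the transferrin receptor supplies the iron for haem. In mice the spleen is a site of red cell formation after blood loss or marrow stress. Several of these genes also work outside the red lineage: Gata1, Tal1, Nfe2, Zfpm1 and Gfi1b in megakaryocytes, Bcl11a in B cells and dendritic cells, Tfrc in most dividing cells, and Ldb1 in many tissues.

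RefSeq promoter windows (GRCm38.p6) were matched for 9 of the 10 genes, with 13 start sites in all, and the 250 bases before each start were searched on both strands. Those of the 3 genes that rose most among the 9 (Bcl11a, Zfpm1 and Gfi1b) and of 3 that did not pass the test (Gata1, Klf1 and Epor) are printed, 5′ to 3′ on the gene's strand. Capitals mark the GATA motifs AGATAA and TGATAA or their reverse complements.
Bcl11a: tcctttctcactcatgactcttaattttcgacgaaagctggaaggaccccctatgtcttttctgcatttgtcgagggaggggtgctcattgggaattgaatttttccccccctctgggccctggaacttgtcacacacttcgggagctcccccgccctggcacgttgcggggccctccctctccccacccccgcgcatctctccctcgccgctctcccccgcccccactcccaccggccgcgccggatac
Zfpm1: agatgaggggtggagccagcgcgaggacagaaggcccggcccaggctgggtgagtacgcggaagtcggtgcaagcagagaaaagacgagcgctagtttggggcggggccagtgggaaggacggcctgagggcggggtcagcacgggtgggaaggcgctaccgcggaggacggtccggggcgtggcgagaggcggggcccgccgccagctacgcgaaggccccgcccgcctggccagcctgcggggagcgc
Gfi1b: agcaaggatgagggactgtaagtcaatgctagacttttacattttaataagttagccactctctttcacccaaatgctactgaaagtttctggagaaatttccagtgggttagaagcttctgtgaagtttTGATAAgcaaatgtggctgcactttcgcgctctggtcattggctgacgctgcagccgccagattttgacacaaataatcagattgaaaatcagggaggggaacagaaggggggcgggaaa
Gata1: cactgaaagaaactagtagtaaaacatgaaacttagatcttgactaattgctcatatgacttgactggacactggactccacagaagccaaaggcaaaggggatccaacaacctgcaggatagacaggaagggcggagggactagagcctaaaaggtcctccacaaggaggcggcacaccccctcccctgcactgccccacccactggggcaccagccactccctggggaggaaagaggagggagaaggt
Klf1: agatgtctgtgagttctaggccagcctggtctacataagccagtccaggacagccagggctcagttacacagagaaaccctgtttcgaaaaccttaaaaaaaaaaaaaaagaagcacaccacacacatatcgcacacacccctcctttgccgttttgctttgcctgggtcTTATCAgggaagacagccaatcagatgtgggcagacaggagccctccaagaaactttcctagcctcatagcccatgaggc
Epor: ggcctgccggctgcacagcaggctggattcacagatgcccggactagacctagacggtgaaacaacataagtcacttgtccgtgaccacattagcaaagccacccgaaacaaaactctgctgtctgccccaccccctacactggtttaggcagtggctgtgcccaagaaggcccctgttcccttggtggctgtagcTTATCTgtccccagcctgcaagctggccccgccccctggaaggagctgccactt
These windows lie at chr11:24080445-24080694 on the plus strand (Bcl11a), chr8:122281891-122282140 on the plus strand (Zfpm1), chr2:28621983-28622232 on the minus strand (Gfi1b), chrX:7967911-7968160 on the minus strand (Gata1), chr8:84901732-84901981 on the plus strand (Klf1) and chr9:21963577-21963826 on the minus strand (Epor). Those of Bcl11a, Zfpm1 and Gata1 lie inside the annotated span of the gene, before an internal start site, and the others end just before its first base. A GATA motif stood in the windows of Gfi1b, Klf1 and Epor and not in those of Bcl11a, Zfpm1 and Gata1, so that its presence did not divide the genes that rose from those that did not pass the test. AGATAA occurred in 3 of the 13 windows and in 9.99% of 32851 windows of all genes, and TGATAA in 2 of 13 and 7.94%. The CACCC-type motif CCNCNCCC, of the kind that KLF proteins bind, stood in 11 of 13 windows and in 45.9% of all. It occurred 8 times, some of them overlapping, in the Bcl11a window, in which 62% of bases were G or C, and not in that of Klf1, at 49.2%. The stricter CCACACCC occurred in 0 of the 13 windows and in 3.2% of all, the E-box CANNTG in 7 and 66.2%, and the core TGANTCA of the NF-E2 site in 0 and 6.75%. These counts describe letters in a short window and show no binding.

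Libraries held 5541486 to 7729988 counts without Dox and 6498193 to 8725767 with Dox. A floor of 3 counts was worth 0.309 to 0.608 normalized CPM (counts per 1000000 of the TMM-scaled library), for counting error only. Sex-linked RNA followed the groups: 4 Y-linked genes together had 545 to 801 counts without Dox and 0 in each Dox library, and Xist had 193 to 324 counts against 3347 to 5669. Sex and Dox therefore cannot be told apart for any gene here, which includes the X-linked Gata1. Libraries without Dox held both Y-linked and Xist RNA. The labels do not give the sex of donor or host, and the share of donor and host cells was not tested. Dox replicate 12 stood apart. Among genes with at least 20 CPM in the other libraries of their group, it was under the lower of them divided by 3 in 2.17% of genes, against 0.16% and 0.258% in Dox replicates 10 and 11 and at most 0.0362% without Dox. Fold changes also ran with transcript length: the median log2 fold change was -0.78 in the fifth of genes with the shortest transcripts, which holds Gata1, Klf1, Nfe2, Gfi1b and Epor, and 0.54 in the fifth with the longest, which holds Bcl11a. In bulk RNA such as this, fewer cells of a type and less RNA per cell cannot be told apart.

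With Dox, 6 of the 10 regulators rose and 0 fell. Bcl11a, Zfpm1, Gfi1b, Nfe2 and Tal1 rose between 2.1-fold and 6.93-fold, and Tfrc rose 1.35-fold. Gata1 and Klf1, the lineage's defining activators, did not pass the test, nor did Epor and Ldb1. The test was edgeR's quasi-likelihood test with Benjamini-Hochberg adjustment over all 14110 genes at 0.05. It called 45.6% of all genes tested, 23.6% as higher and 22.1% as lower with Dox. Groups did not overlap for 8 of the 10 regulators, 7 of them higher with Dox; the same held for 59.6% of all genes tested and, in the higher direction, for 30.0%. The median log2 fold change of the 10 was 0.75, against 0.07 over all genes tested. Scaling by library size alone raised the median of all genes to 0.38 and the share of called genes that were higher from 51.6% to 64.3%, so directions are relative to the TMM scale. The log2 fold changes of the 10 ran from -0.89 (Ldb1) to 2.79 (Bcl11a). Without Dox replicate 12, 6 of the 10 regulators were called, all higher, where 22.9% of all genes in that fit were called higher. Leaving out any other single library gave 5, since Tfrc lost its call. In those fits 14.6% to 21.6% of all genes were called higher. Missing the threshold does not show that Gata1, Klf1, Epor and Ldb1 were unchanged.

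**Figure D1:**
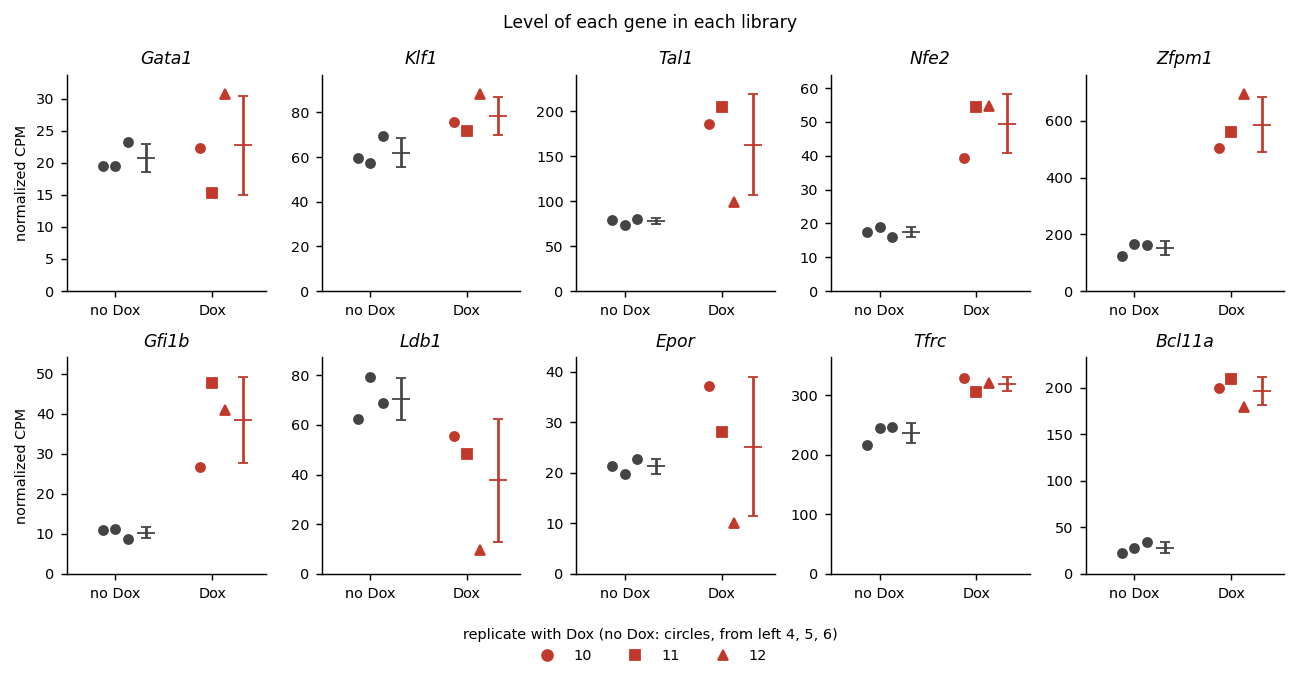
Normalized CPM (vertical axis, from 0) of each of the 10 genes in each library without Dox (grey) and with Dox (red); horizontal marks and bars are the mean and SD of 3 libraries. Bcl11a, Zfpm1, Gfi1b, Nfe2, Tal1 and Tfrc sit higher in every Dox library, while replicate 12 (triangle) is far below the other Dox libraries for Ldb1, Epor and Tal1.

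GATA1 is the zinc finger factor without which red cells do not mature. Gata1 (Entrez gene 14460, X chromosome, 7959260 to 7976663, minus strand, GRCm38) was at 19.5, 19.5 and 23.2 CPM without Dox and at 22.3, 15.2 and 30.7 CPM with Dox. The Dox libraries lay on both sides of those without Dox. Its log2 fold change was 0.13 ± 0.31 (SE; edgeR adjusted p = 0.754), and 93.2% of the genes tested had a larger difference, whichever its sign. It came from 96 to 233 counts per library, and its sign turned to -0.16 without Dox replicate 12. With the trend with transcript length removed, the log2 fold change was 0.63 (edgeR adjusted p = 0.141).

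Zfpm1 and Gfi1b, which encode partners of GATA1, rose, as Gata1 was not shown to do. FOG1, encoded by Zfpm1, is the cofactor that GATA1 contacts at many of its targets. Zfpm1 (Entrez gene 22761, chromosome 8, 122281856 to 122337862, plus strand) had 124, 167 and 163 CPM without Dox and 504, 559.6 and 693 CPM with Dox. The lowest Dox library was 3.02 times the highest library without Dox. Its log2 fold change was 1.95 ± 0.19 (SE; edgeR adjusted p = 3.05e-05). The gene model Gm20388 overlaps it on the same strand, so its count depends on how shared reads were assigned. GFI1B is a repressor that recruits the histone demethylase LSD1 and is needed for both red cells and platelets. Gfi1b (Entrez gene 14582, chromosome 2, 28609450 to 28621982, minus strand) had 11.04, 11.15 and 8.82 CPM without Dox and 26.8, 47.8 and 40.9 CPM with Dox, and again the groups were apart. Its log2 fold change was 1.90 ± 0.30 (SE; edgeR adjusted p = 0.000638). Set against Gata1 in the same library, Zfpm1 had 6.37, 8.59 and 7.01 counts per Gata1 count without Dox and 22.6, 36.7 and 22.6 with Dox. Gfi1b had 0.506 ± 0.11 and 1.89 ± 1.08 counts per Gata1 count (SD, n = 3 each), and the groups did not overlap in either ratio. They did overlap for Tal1, with 3.47 to 4.06 counts per Gata1 count without Dox and 3.24 to 13.4 with Dox, and for Klf1, with 2.94 to 3.04 and 2.87 to 4.72.

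TAL1 and LDB1 meet in a single protein complex, but Tal1 rose while Ldb1 was at lower levels in all Dox libraries and did not pass the test. TAL1 is the helix-loop-helix factor that starts blood formation, and its forced expression is a known cause of T cell leukaemia. Tal1 (Entrez gene 21349, chromosome 4, 115056426 to 115071755, plus strand) was at 79.4, 73.6 and 80.5 CPM without Dox. With Dox it was at 185 and 205 CPM in replicates 10 and 11 but at 99.4 CPM in replicate 12, still above all libraries without Dox. That gave a log2 fold change of 1.07 ± 0.25 (SE; edgeR adjusted p = 0.00672). LDB1 dimerizes and brings distant enhancers to globin promoters. Ldb1 (Entrez gene 16825, chromosome 19, 46031525 to 46048145, minus strand) had 62.5, 79.2 and 69.0 CPM without Dox and 55.4, 48.4 and 9.49 CPM with Dox. All Dox libraries were lower, by little in 2 of them and by much in replicate 12, which had 72 counts. The log2 fold change of -0.89 ± 0.49 (SE) did not pass the threshold (edgeR adjusted p = 0.164). Without replicate 12 it was -0.45 (adjusted p = 0.0615), while limma-voom with a separate variance weight for each group called it at -1.20 (adjusted p = 0.0158), as did edgeR with no filter on low counts at -1.02 (edgeR adjusted p = 0.000379). Ldb1 overlaps Pprc1 on the other strand, and whether counting used the strand is not given in the sources used here. Per Tal1 count there were 0.788, 1.08 and 0.857 Ldb1 counts without Dox and 0.299, 0.237 and 0.0955 with Dox.

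KLF1 and NF-E2 act on the beta globin locus, KLF1 at the adult beta globin promoter and NF-E2 at the distant control region. Klf1 (Entrez gene 16596, chromosome 8, 84901982 to 84905291, plus strand) was at 59.4, 57.1 and 69.5 CPM without Dox and at 75.7, 71.8 and 88.2 CPM with Dox. Every Dox library was higher, the lowest by a factor of only 1.03 over the highest without Dox. The log2 fold change of 0.34 ± 0.18 (SE) did not pass the threshold (edgeR adjusted p = 0.155). It passed in 2 of 16 alternatives: with the trend with transcript length removed, at 1.03 (adjusted p = 0.00156), and by library size alone, at 0.65 (adjusted p = 0.0161). Nfe2 (Entrez gene 18022, chromosome 15, 103248212 to 103258403, minus strand) encodes the tissue-restricted subunit of NF-E2, which is also needed for platelet release. Nfe2 had 17.3, 19.0 and 16.1 CPM without Dox and 39.5, 54.3 and 54.7 CPM with Dox, with the lowest Dox library 2.07 times the highest without Dox. Its log2 fold change was 1.50 ± 0.24 (SE; edgeR adjusted p = 0.000627).

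Bcl11a showed the widest separation of the 10 in normalized CPM. With the trend with transcript length removed, its log2 fold change was 2.40 and that of Gfi1b 2.42. BCL11A silences embryonic and fetal globin genes in adult red cells and is required for B cell development. Bcl11a (Entrez gene 14025, chromosome 11, 24076564 to 24173558, plus strand) was at 23.0, 28.2 and 33.9 CPM without Dox and at 199.8, 209 and 179.8 CPM with Dox. The lowest Dox library was 5.3 times the highest without Dox. On the log2 scale the difference was 2.79 ± 0.20 (SE; edgeR adjusted p = 5.55e-06), and 11.2% of the genes tested had a larger difference, whichever its sign. Antisense models overlap the gene, and their reads cannot be told apart from its own if strand was not used. Its paralogue Bcl11b, a T cell factor, moved the opposite way, from 391 ± 7.4 to 55.3 ± 10.4 CPM (SD, n = 3 each; log2 fold change -2.82 ± 0.18 (SE), edgeR adjusted p = 3.35e-06). There were 0.0586 to 0.0854 Bcl11a counts per Bcl11b count without Dox and 2.98 to 4.08 with Dox. Of the embryonic globin genes, Hbb-y had 0 to 15 counts, Hbb-bh1 0 to 12 and Hba-x 0 to 10 in any library, too few to test.

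The receptors differed from each other in how steady they were. EPOR passes the erythropoietin signal to the kinase JAK2. Epor (Entrez gene 13857, chromosome 9, 21958897 to 21963576, minus strand) had 21.3, 19.9 and 22.7 CPM without Dox and 37.3, 28.1 and 10.1 CPM with Dox. Dox replicates 10 and 11 were above all libraries without Dox, and replicate 12, with 77 counts, was below all of them. The log2 fold change was 0.24 ± 0.41 (SE; edgeR adjusted p = 0.664). It was 0.60 without replicate 12 (adjusted p = 0.0661) and -0.18 without replicate 10 (adjusted p = 0.765). With the trend with transcript length removed it was 0.78 (edgeR adjusted p = 0.142). The transferrin receptor carries iron-loaded transferrin into the cell, and its mRNA is stabilized when iron is scarce. Tfrc (Entrez gene 22042, chromosome 16, 32608896 to 32632794, plus strand) was at 216, 246 and 246 CPM without Dox and at 329, 306 and 320.5 CPM with Dox. The groups did not overlap, and spread within each was small. It rose by 0.43 ± 0.14 on the log2 scale (SE; edgeR adjusted p = 0.0327). The call was lost in 7 of 16 alternatives, among them the trend with length removed (0.19, adjusted p = 0.286), no filter on low counts (0.30, adjusted p = 0.317) and the omission of any library but Dox replicate 12 (0.33 to 0.44, adjusted p up to 0.203).

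**Figure D2:**
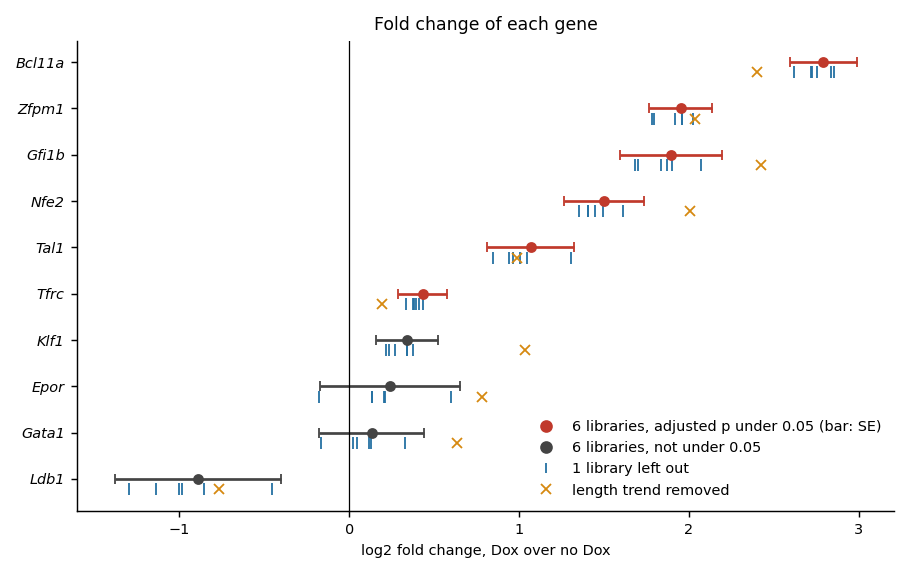
Log2 fold change with Dox over without Dox (horizontal axis) for each gene, with SE bars, red where the adjusted p is under 0.05; blue ticks leave out 1 library each, and crosses remove the trend with transcript length. Bcl11a at 2.79 to Tal1 at 1.07 stay above 0 in all of these, while Gata1 and Epor have ticks on both sides of 0.

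Haemoglobin RNA also differed, so each regulator was set beside it in the same library. The 4 adult globin genes took 8.95%, 9.04% and 8.61% of counts without Dox and 15.9%, 15.8% and 14.1% with Dox (p = 0.1 by an exact permutation test, two-sided, and no smaller p exists for 3 against 3). Per 10000 haemoglobin counts, Tfrc stood at 23.9 ± 2.8 without and 23.1 ± 1.4 with Dox, Klf1 at 6.29 ± 1.04 and 5.72 ± 0.86, Epor at 2.16 ± 0.26 and 1.80 ± 0.955, and Gata1 at 2.10 ± 0.34 and 1.66 ± 0.63 (SD, n = 3 each). The groups overlapped for these 4 genes. The Tal1 groups overlapped too, since replicate 12 had 7.54 and replicates 10 and 11 had 13.2 and 14.4, against 7.24 to 8.67 without Dox. The groups stayed apart for Bcl11a (2.88 ± 0.72 to 14.2 ± 0.6), Zfpm1 (15.4 ± 2.9 to 42.7 ± 8.8), Gfi1b (1.04 ± 0.08 to 2.79 ± 0.78) and Nfe2 (1.76 ± 0.10 to 3.60 ± 0.70; SD, n = 3 each), all higher with Dox. For Ldb1 they stayed apart in the other direction, at 7.10 ± 0.92 and 2.69 ± 1.73. These overlaps depend on which globin genes form the denominator, since alpha globin took 5.25% ± 0.17 of counts without and 12.8% ± 0.5 with Dox, and beta globin 3.61% ± 0.18 and 2.45% ± 0.53 (SD, n = 3 each). Per 10000 alpha globin counts, Gata1, Klf1, Epor and Tfrc were lower in every Dox library (Tfrc 40.3 ± 3.9 and 27.5 ± 1.3, Klf1 10.6 ± 1.6 and 6.79 ± 0.81; SD, n = 3 each). Per 10000 beta globin counts, Klf1 (15.5 ± 2.8 and 37.1 ± 12.4), Tfrc (58.8 ± 8.7 and 148 ± 34; SD, n = 3 each) and Tal1 were higher in every Dox library, while Gata1, Epor and Ldb1 overlapped. Bcl11a, Zfpm1, Gfi1b and Nfe2 were higher with Dox, with no overlap, by either denominator; both were chosen after seeing the data.

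Setting the genes beside the summed counts of 18 red cell membrane genes split them as the summed haemoglobin counts did: Tfrc had 143 ± 11 and 136 ± 9 counts per 1000 of these, Gata1 12.5 ± 0.4 and 9.65 ± 3.01, and Bcl11a 17.01 ± 1.58 and 83.9 ± 9.2 (SD, n = 3 each).

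**Figure D3:**
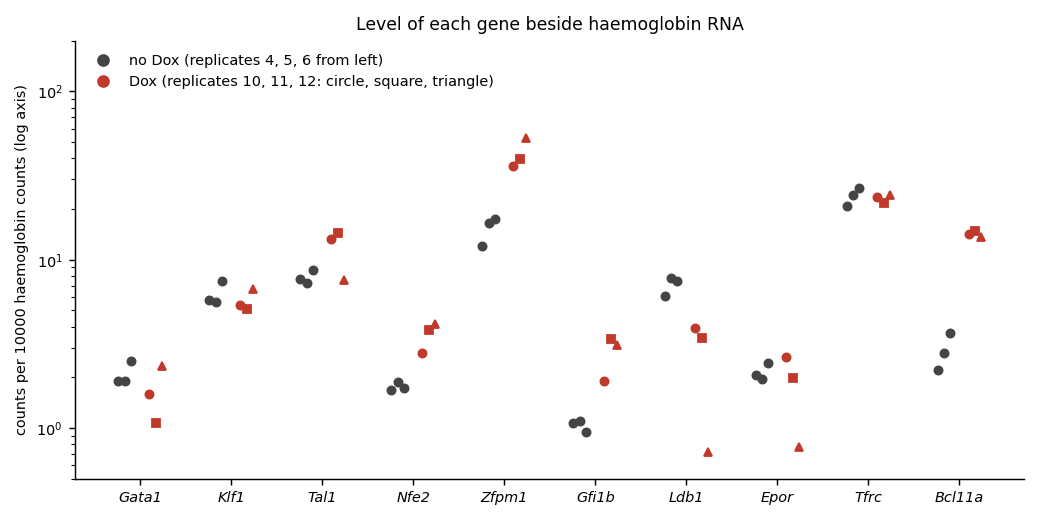
Counts of each gene per 10000 counts of the 4 adult globin genes (vertical log axis), 1 point per library, grey without and red with Dox. Gata1, Klf1, Epor and Tfrc overlap between groups, whereas Bcl11a, Zfpm1, Gfi1b and Nfe2 lie higher and Ldb1 lower in every Dox library.

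Partners of these factors moved in both directions. Of 30 genes for proteins that work with them, 8 rose and 11 fell (edgeR adjusted p under 0.05; 23.6% and 22.1% over all genes tested), with a median log2 fold change of -0.13; scaled by library size alone, 10 rose and 7 fell, with 30.2% and 16.7% of all genes called higher and lower at that scaling. Sox6, which represses embryonic globin together with BCL11A, rose from 53.2 ± 4.1 to 435 ± 25 CPM (SD, n = 3 each; log2 fold change 3.03 ± 0.16 (SE), edgeR adjusted p = 1.64e-06). Zbtb7a, another fetal globin repressor, rose by 1.42 on the log2 scale (edgeR adjusted p = 0.00024). In the TAL1 complex, Lmo2 rose by 1.22 (edgeR adjusted p = 0.000626) and the TAL1-like factor Lyl1 by 1.93 (adjusted p = 0.00443). Of the E proteins that pair with TAL1, Tcf12 fell by 1.75 (edgeR adjusted p = 3.48e-05) and Tcf3 had a log2 fold change of 0.07 (adjusted p = 0.822). Myb, which keeps progenitors dividing, fell from 187 ± 4.5 to 83.1 ± 3.3 CPM (SD, n = 3 each; edgeR adjusted p = 0.000184), and the methyl-CpG binding gene Mbd2 fell by 1.80 (adjusted p = 7.2e-05). Gata2, the earlier GATA factor of progenitors, had only 5 to 53 counts per library and did not pass the test (log2 fold change 0.97 ± 0.95 (SE), edgeR adjusted p = 0.435).

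Genes that act downstream of the receptors were called in both directions. Of 15 tested genes of erythropoietin receptor signalling, 6 rose and 2 fell, against 23.6% and 22.1% over all genes tested. Scaled by library size alone, 8 rose and 2 fell, against 30.2% and 16.7%. The kinase Lyn rose by 2.74 on the log2 scale (edgeR adjusted p = 7.7e-06) and the phosphatase Ptpn6, which switches the receptor off, by 1.43 (adjusted p = 0.000135). Pim1, a kinase induced by cytokine receptors, fell by 1.60 (adjusted p = 0.00035). The receptor's own kinase Jak2 had a log2 fold change of 0.52 (edgeR adjusted p = 0.0612) and its feedback inhibitor Cish 0.27 (adjusted p = 0.603), while of the feedback genes of the Socs family Socs2 rose by 1.04 (adjusted p = 0.0244), Socs1 fell by 2.52 (adjusted p = 0.00737) and Socs3 had -1.29 (adjusted p = 0.0921). Of the transcription factors it activates, Stat5a fell by 1.16 (adjusted p = 0.0296) and Stat5b had -0.67 (adjusted p = 0.156). The Stat5a call was lost in 6 of 16 alternatives, among them library size alone (-0.84, edgeR adjusted p = 0.102), and the Socs2 call in 3. Jak2 passed in 5 and Stat5b in 2. Lyn and Ptpn6 are also well expressed in B cells and myeloid cells. Of 14 genes for uptake and handling of iron after the transferrin receptor, 3 rose and 5 fell, against 23.6% and 22.1% over all genes tested; scaled by library size alone, 5 rose and 5 fell, against 30.2% and 16.7%. Those that fell included the iron chaperone Pcbp1 (412 ± 48 to 43.5 ± 5.8 CPM), ferritin heavy chain Fth1 (910 ± 81 to 186 ± 27 CPM; SD, n = 3 each), the endosomal reductase Steap3 and the endosomal iron transporter Slc11a2. Their log2 fold changes were -3.24, -2.29, -1.98 and -1.64 (edgeR adjusted p from 1.96e-06 to 0.00511). The mitochondrial iron importer Slc25a37 rose by 1.12 (edgeR adjusted p = 0.00132) and the iron-sensing ubiquitin ligase gene Fbxl5 by 1.45 (adjusted p = 0.000501). Ferritin light chain Ftl1 rose by 0.45 (edgeR adjusted p = 0.0266).

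Genes that the circuit is known to switch on were counted in the same way, against 23.6% of all genes tested called higher and 22.1% called lower. Among 10 genes of haem synthesis, 4 rose and 1 fell; Alas2, the red cell enzyme that starts haem synthesis and a classic GATA1 target, rose from 177 ± 14 to 380 ± 35 CPM (SD, n = 3 each; edgeR adjusted p = 0.000295). Among 18 red cell membrane genes, 9 rose and 2 fell. The membrane skeleton gene Epb41 rose by 1.62 on the log2 scale (edgeR adjusted p = 0.000179), while the Rh blood group gene Rhd fell by 1.58 (adjusted p = 0.000439). Among 12 genes of late red cells, 6 rose and 4 fell, with log2 fold changes of 1.97 for Cpeb4, a regulator of translation, and -1.98 for carbonic anhydrase Car1, which went from 144 ± 12 to 36.4 ± 6.9 CPM (SD, n = 3 each; edgeR adjusted p = 9.05e-05 and 4e-05). With the trend with transcript length removed, 5 of the late genes rose and 1 fell, and 8 of the membrane genes rose and 1 fell, against 22.2% higher and 21.6% lower of the 11992 genes in that fit.

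Markers of other blood cells that use these factors differed between the groups as well; over all genes tested, 23.6% were called higher and 22.1% lower. Of 14 megakaryocyte genes, 13 were tested, 11 rose and 0 fell; their summed level ran from 123 to 135 CPM without Dox and from 503.5 to 697 CPM with Dox. Among them Itgb3 rose by 3.54, Gp5 by 4.29 and Pf4 by 2.31 on the log2 scale (edgeR adjusted p from 2.88e-06 to 5.03e-05). Of 10 mast cell and basophil genes, 6 were tested and 3 rose (Hdc, Kit and Mcpt8); the list summed to 16.4 to 18.5 CPM without and 75.8 to 96.1 CPM with Dox, and its higher sum lay mainly in those 3 genes. The mast cell protease genes Tpsb2 (4.31 ± 0.45 and 0.527 ± 0.913 CPM) and Cpa3 (3.94 ± 0.18 and 0.663 ± 0.821 CPM; SD, n = 3 each) were lower in every Dox library without passing the test (log2 fold changes -3.02 and -2.56, edgeR adjusted p = 0.103 and 0.106), and Cma1 was at 0 in all Dox libraries. Of this list, 2 genes were called lower without Dox replicate 12 (24.5% of all genes in that fit) and with limma-voom (24.8%). All 12 B cell genes rose, from a sum of 58.0 to 69.3 CPM to a sum of 2169.9 to 2419.5 CPM, led by Ms4a1, Pax5 and Ebf1 (log2 fold changes 6.98, 5.08 and 6.22, edgeR adjusted p from 1.67e-07 to 9.87e-07). Of 8 tested plasmacytoid dendritic cell genes, 4 rose and 1 fell, with log2 fold changes of 4.15 for Irf8 and -2.32 for Ccr9 (edgeR adjusted p = 1.05e-06 and 0.00128). Of 10 myeloid genes, 8 rose and 0 fell, from a sum of 162 to 168 CPM without Dox to 1896 to 2029.7 CPM with Dox. Of 10 red pulp macrophage genes, 1 rose and 3 fell, and leaving out Dox replicate 12, 4 rose and 3 fell, against 22.9% and 24.5% of all genes. The part of megakaryocytes, mast cells, B cells, dendritic cells and myeloid cells in the levels of the 10 regulators was not tested. Of 12 T cell genes, 11 fell and 0 rose, and their sum went from 2727 to 3019 CPM without Dox to 190.6 to 226 CPM with Dox. Of 12 cell cycle genes, 10 fell, among them Mcm6 and Pcna (log2 fold changes -2.22 and -2.61, edgeR adjusted p = 6.44e-06 and 8.96e-06), and 0 rose.

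**Figure D4:**
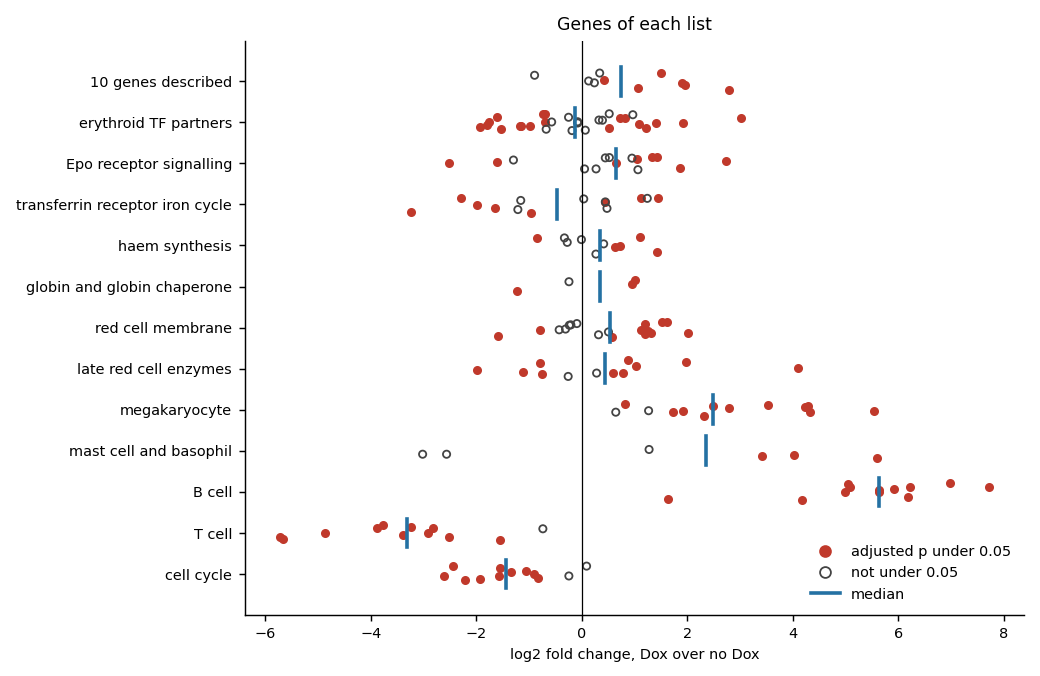
Log2 fold change with Dox over without Dox (horizontal axis) of each tested gene in the 10 regulators and 12 other gene lists; filled red points have an adjusted p under 0.05, and blue bars are medians. The regulators spread from -0.89 to 2.79, with a median of 0.75. Medians of the other lists ran from 5.64 (B cell) to -3.31 (T cell), with megakaryocyte at 2.50, Epo receptor signalling at 0.66 and red cell membrane at 0.54.

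For 5 of the regulators the genes with the most similar profile over the 6 libraries were found by the root mean square difference of centred log2 CPM among 8583 other genes with a mean of at least 10 CPM. Because the distance is not scaled, the number of near genes depends on the size of a gene's fold change and on its spread. Bcl11a had the fewest of the 5, with 10 genes within 0.2 log2 units. The nearest were Zfp462 (0.118), Gm51767 (0.13) and Map3k5 (0.138). Epor had 23 genes within that distance, led by Slc35c1 (0.101), Czib (0.101) and Smim14 (0.135), and these share its low value in replicate 12 by construction of the measure. Gata1 had 100, led by Map4k5 (0.0633), Slmap (0.0789) and Cic (0.0831). Klf1 had 333, led by Phactr4 (0.0631), Metap1 (0.0714) and Crk (0.0731), and Tfrc 384, led by Arpc2 (0.0405), Ptp4a2 (0.0533) and Magt1 (0.0534). The libraries, and with them depth and group, are common to all of these comparisons, so they describe likeness only.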

How the data were processed

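Libraries were QuantSeq 3′ mRNA libraries, which read the 3′ end of poly(A) RNA. STAR, featureCounts and GRCm38 are named in the submitters' processing notes; versions, annotation, strand setting and the treatment of shared reads are not given in the sources used here. The authors deposited raw counts by Entrez gene, 1 column for each library. Columns were matched to samples by title, and 0 sample columns were left over. Symbols and promoters came from RefSeq (GRCm38.p6), and positions, overlaps and transcript lengths from GENCODE.

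Dox was tested against no Dox over all 6 libraries with edgeR 4.0.16 in R 4.3.3 (filterByExpr with a minimum count of 10 and a minimum total of 15, TMM scaling, quasi-likelihood F-test, Benjamini-Hochberg threshold 0.05). The SE is the log2 fold change, without its sign, over the square root of F. CPM are counts per 1000000 of the TMM-scaled library. The fit was tested on simulated data. Alternatives were other scalings, filters and thresholds, leaving out very abundant gene classes, DESeq2 1.42.0, limma-voom (limma 3.58.1), leaving out each library and, chosen after seeing the data, removal of each library's trend with transcript length.

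The 10 genes and the lists were chosen with earlier results of these data known. Named genes were the 10, up to 3 genes with the lowest p in each other list, and the 3 nearest profiles of 5 regulators; not all are reported here. Lmo2, Lyl1, Tcf3, Myb, Zbtb7a, Gata2, Bcl11b, Jak2, Cish, Socs1, Socs2, Socs3, Ccr9, Stat5a, Stat5b, Steap3, Slc11a2, Slc25a37, Ftl1, Tpsb2, Cpa3, Cma1, Xist, the Y-linked genes and the embryonic globins were named once their values had been seen. The globin chaperone symbol Ahsp was not matched. Ratios to haemoglobin and between genes use raw counts within a library and are descriptions.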

Additional observations from a re-analysis of the deposited data

How the results depend on the processing

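No paired analysis was possible because no replicate number occurs in both groups. Bcl11a, Zfpm1, Gfi1b, Nfe2 and Tal1 kept their direction and an adjusted p under 0.05 in all 16 alternatives fitted to them; the highest adjusted p was 0.0485 (edgeR; Tal1 with no Dox replicate 5 left out). Of 160 comparisons of a regulator with its reported value, 146 kept direction and call, 7 became weaker, all of them Tfrc, 4 became stronger and 3 changed sign. Tfrc went to a log2 fold change of 0.30 with no low-count filter and to 0.19 with the length trend removed, an alternative chosen after seeing the data; leaving out 1 library each gave 0.33 to 0.44. Klf1 passed the threshold by library size only (0.65) and with the length trend removed (1.03). Ldb1 passed it with no low-count filter (-1.02) and with limma-voom group weights (-1.20), and in each of these 1 regulator was called lower in place of 0. In these fits 13.3% and 23.3% of all genes were called lower. Gata1 changed sign with no low-count filter (-0.0061) and ran from -0.16 to 0.33 with 1 library left out, and Epor from -0.18 to 0.60. With the length trend removed Gata1 and Epor were at 0.63 and 0.78, and by library size only at 0.43 and 0.56, without passing the threshold. At an adjusted p under 0.01, the number of all genes called higher was 2200 in place of 3324, fewer by construction. Other named genes changed sign with the length trend removed (Hbb-bs 0.041, Xpo7 -0.11, Map4k5 -0.034, Slmap -0.21, Cic -0.40) or with no low-count filter (Map4k5 -0.015, Slmap -0.0091, Tcf3 -0.076). With 1 library left out, Tcf3 ran from -0.16 to 0.16, Slc35c1 from -0.18 to 0.47, Czib from -0.12 to 0.66, Map4k5 from -0.13 to 0.32, Slmap from -0.12 to 0.29 and Cic from -0.12 to 0.42. The cause of these changes was not tested. Of the other named genes, 31 values became weaker and 10 stronger, and 1134 kept direction and call. Low counts limit Gata2, Cma1 and the embryonic globins, among others.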

Other observations

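The globin genes that these factors switch on did not move together. Per beta globin count (Hbb-bs and Hbb-bt) there were 1.35, 1.51 and 1.50 alpha globin counts (Hba-a1 and Hba-a2) without Dox and 4.67, 4.81 and 6.69 with Dox. The higher haemoglobin share with Dox lay in the alpha genes. Hba-a1 and Hba-a2 rose by 0.95 and 1.01 on the log2 scale (edgeR adjusted p = 2.97e-05 and 2.18e-05), Hbb-bs fell by 1.23 (adjusted p = 4.44e-05), and Hbb-bt had -0.24 (adjusted p = 0.361). With the trend with transcript length removed Hbb-bs was at 0.041 (edgeR adjusted p = 0.8), while the ratio above, taken between raw counts, does not use that step. The alpha genes are near-identical copies, and so are the beta genes, so only their sums are certain; how multi-mapped reads were treated is not given in the sources used here.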
